A study of Drosophila melanogaster with 4 samples.

Results

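The long noncoding and antisense RNAs of the early Drosophila melanogaster embryo were described as 82 genes, 61 with names starting with lncRNA and 21 with names starting with asRNA. They were chosen from the 2402 genes with such names, roX1 left out, among the 17807 genes counted, by a sum of at least 500 unique molecular identifiers (UMIs, 1 for each captured RNA molecule) over 245 embryos and 8 eggs. Of the 2402 genes, 1078 had at least 1 UMI. All 82 were found in the BDGP6.54 annotation, 80 by symbol, 1 by its CR number and 1 through a RefSeq synonym. Just inside the threshold were lncRNA:CR45036 with 520 UMIs and lncRNA:CR44816 with 518, and just outside it asRNA:CR45397 with 493 and asRNA:CR44368 with 476. The choice rests on abundance in the same individuals that are described here, so levels and courses along the order are given as descriptions, with no test. Tests are given only for eggs, for embryos outside the order and for parental alleles.

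Single embryos up to 3 h old, and unfertilized eggs, were profiled by CEL-Seq2, which marks the polyadenylated RNA of each individual with a well barcode; RNA was taken from the pellet left after metabolites had been extracted. The labels give virgin DGRP_737 females and DGRP_352 males as parents, kept at 25 °C and 60% humidity, so every embryo is a hybrid of 2 inbred wild-derived lines, and no group carries a transgene or a treatment. Wells were pooled into 4 multiplexed libraries, which are technical batches. The authors ordered 245 embryos and 8 eggs by pseudotime, an order made from these same transcriptomes. The individuals of the order had between 163287 and 2069031 UMIs, and the median fell from 907317 in the first 61 embryos to 568460 in the last 61. Patterning genes (eve, ftz, slp1, sna, twi, gt, Kr and hb) summed to a median of 484 CPM (UMIs per 1000000 gene UMIs of the individual) in the first 61 embryos and 1921 CPM in the last 61. Of 12 follicle and eggshell markers 5 were at 0 in every individual of the order and the rest summed to at most 9.80 CPM, and of 7 testis markers 5 were at 0. Germ plasm and pole cell markers summed to a median of 3162 CPM in the first 61 embryos and 871 CPM in the last 61. Whole embryos were measured, so fewer cells making an RNA and less RNA per cell cannot be told apart.

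As background, the fly embryo starts with RNA loaded by the mother, which is cleared in waves, while transcription of its own genome starts weakly during the fast nuclear cycles and becomes general at cellularization. Long noncoding RNAs have no long reading frame. Some are precursors of microRNAs, some are transcribed through the regulatory DNA of Hox genes, some stay in the nucleus and bind proteins, and antisense RNAs are copied from the strand opposite a coding gene.

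Together the 82 genes held 0.447% of all gene UMIs. A pair of short X-linked RNAs, lncRNA:CR34335 and lncRNA:CR40469, held 71.5% of that. Along the order, 31 members rose, 21 fell and 30 did neither, with rising set at a Spearman's rho of CPM with rank of at least 0.5 and falling at -0.5 or less. Among all genes with at least 500 UMIs, 20.9% rose and 41.6% fell by the same rule. The median rho was 0.22 in the members and -0.35 in all genes. With TMM-scaled totals 35 members rose and 18 fell, and among all genes 28.5% rose and 31.8% fell. With the authors' deposited normalized values 29 members rose and 29 fell, and among all genes 13.9% rose and 52.5% fell. After thinning every embryo to one number of UMIs 29 members rose and 10 fell, and among all genes 17.3% rose and 34.1% fell. Spearman's correlation with rank was above 0 in all 4 libraries for 31 of the 31 rising members. It was below 0 in all 4 for 21 of the 21 falling ones. The classes were set on these same embryos, so a like sign in each library adds little. The limit of 0.5 or -0.5 was met in all 4 libraries by 29 of the rising and 17 of the falling members.

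**Figure D1:**
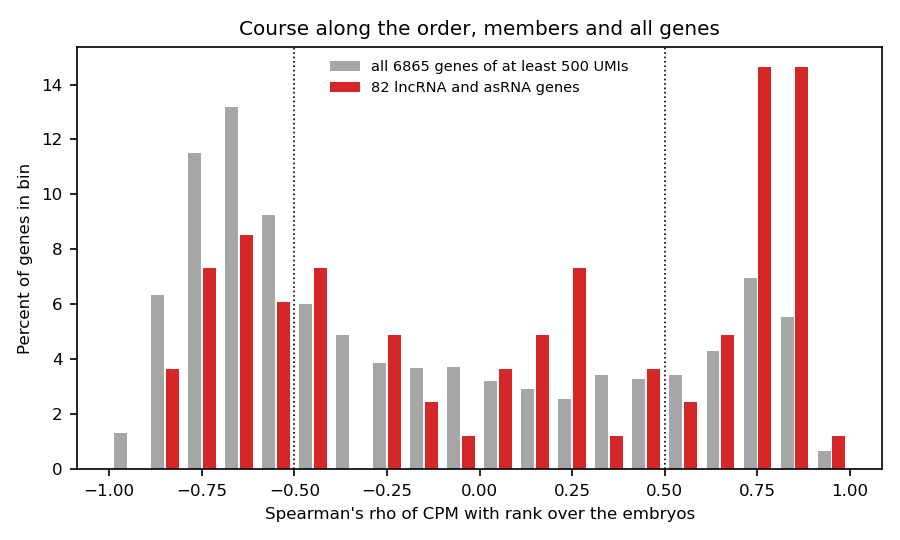
Percent of genes in bins of Spearman's rho of CPM with rank over 245 embryos, for the 82 members (red) and all genes of at least 500 UMIs (grey), with dotted lines at -0.5 and 0.5. The tallest red bars stand at the right, past the line for rising, and the tallest grey bars at the left, past the line for falling.

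Summed over the 31 rising members, the lowest, median and highest values were 47.7, 68.9 and 103 CPM in the first 61 embryos and 1376, 1861 and 2684 CPM in the last 61. The 8 eggs had 51.7, 65.3 and 108 CPM. Eggs and first embryos overlapped, and both lay below every one of the last 61 embryos. The 21 falling members summed to 316, 444 and 662 CPM in the first 61 embryos and 33.1, 71.4 and 113 CPM in the last 61, with the eggs at 384, 442 and 575 CPM. Each rising member had a mean in the last 61 embryos between 3.39 and 230 times that in the first 61, with a median of 65.1 times. For falling members the first 61 were between 2.41 and 50.9 times the last 61, with a median of 8.55 times.

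The members differed in when they changed. The rank at which the running mean over 15 embryos first reached 50% of its highest value had a median of 154 in the rising members, between 135 and 226, against a median of 136 in all rising genes. All rising genes lay between rank 8 and 235, with a lower quartile of 26. Part of them thus stood at 50% near the start of the order, so these medians do not compare onsets alone. The falling members last held 50% at a median rank of 148, against 141 in all falling genes. Among the rising members 9 had no UMI in any of the 8 eggs. Each of the 21 falling members, and each of the 30 that did neither, had a UMI in at least 4 of the 8 eggs.

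**Figure D2:**
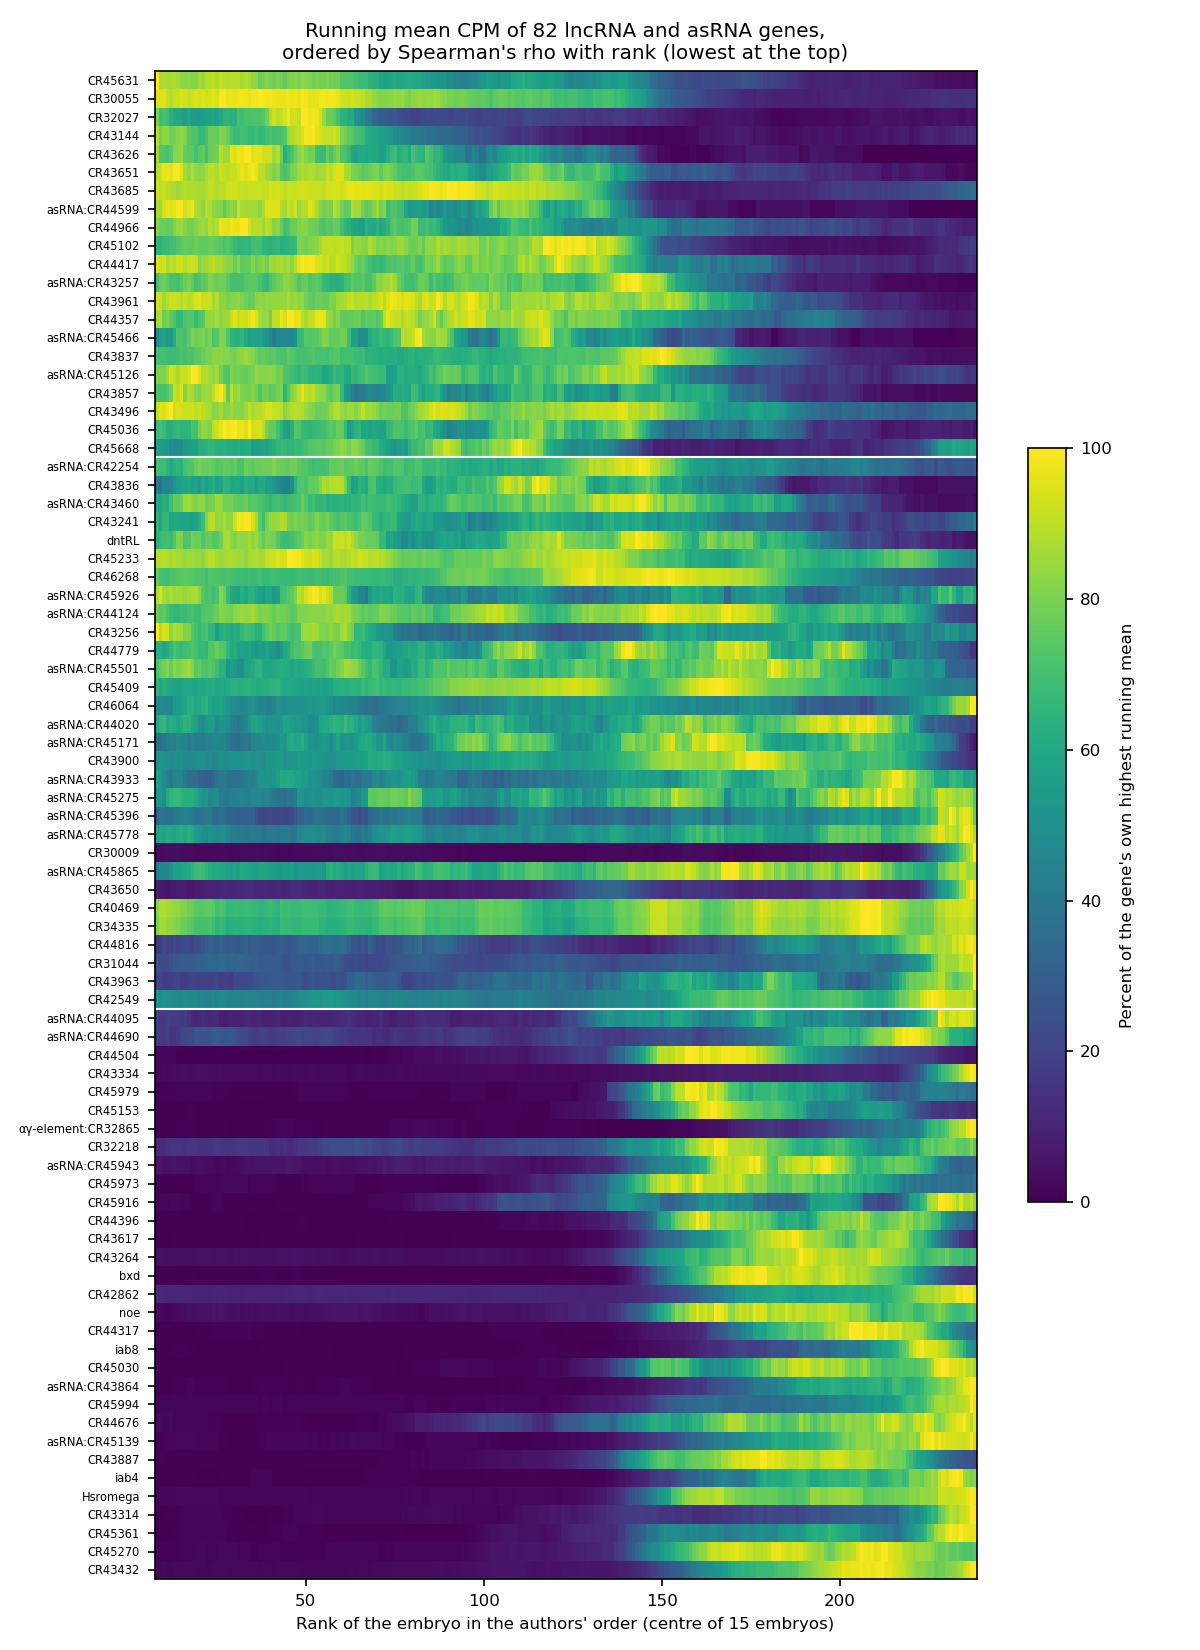
Running mean CPM over 15 embryos as a percent of each gene's own highest value, for the 82 members (rows, ordered by rho) against the rank of the embryo; white lines set apart the 21 falling members at the top and the 31 rising ones at the bottom. Most changes in either direction stand near rank 150, and a few members are high only at the right edge.

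Of the rising members with most UMIs, lncRNA:CR43432 (lncRNA:marge in the annotation, FBgn0263380, 3L, 14976626 to 14977631) lies 586 bases from Ocho, in the Bearded complex, whose small proteins inhibit Notch signalling. Its CPM was 1.21, 11.5 and 30.6 (lowest, median and highest) in the first 61 embryos, 21.1, 149 and 546 in embryos of rank 123 to 184, and 288, 525 and 785 in the last 61. The 8 eggs ranged from 4.06 to 10.8 CPM. No embryo of the last 61 was as low as any of the first 61, and the mean went from 12.3 ± 6.29 (SD, n = 61) to 527 ± 114 CPM (SD, n = 61), with a rho of 0.91. The genes whose CPM was most like it over the 245 embryos were Tom, also of the Bearded complex, with a Spearman correlation of 0.92, CG4440 with 0.92 and CG13465 with 0.92. These points share depth and the order itself. Ocho went from 0.343 ± 0.553 to 45.5 ± 14.2 CPM between the same groups (SD, n = 61 each).

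lncRNA:CR43887 (FBgn0264479, 3L, 11693135 to 11693661) is a single-exon RNA 218 bases from Dph1, an enzyme gene of diphthamide synthesis. It had 0, 3.53 and 9.18 CPM (lowest, median and highest) in the first 61 embryos and 33.5, 356 and 615 CPM at rank 123 to 184. In the last 61 embryos it had 51.2, 358 and 710 CPM, and its running mean peaked at rank 178 and was under 50% of that peak after rank 225. The early and late groups did not overlap. Dph1 had a rho of 0.01, so the neighbour kept no such course. The 3 genes most like lncRNA:CR43887 were CG8960, CG13427 and Sep5, with Spearman correlations of 0.94, 0.93 and 0.92.

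lncRNA:Hsromega (FBgn0001234, 3R, 21296127 to 21317836) is the heat-shock-inducible nuclear RNA that organizes omega speckles, where RNA-processing proteins are held. It had 0, 7.20 and 36.4 CPM in the first 61 embryos and 239, 380 and 1020 CPM in the last 61, with no overlap. It reached 50% of its peak at rank 149. The other heat-shock RNA among the members, lncRNA:alphagamma-element:CR32865, an RNA of the 87C heat-shock locus, rose later, at rank 224. It had 0, 0 and 2.18 CPM in the first 61 embryos and 0, 10.8 and 43.4 CPM in the last 61, and these overlapped. The nearest coding gene to it, Hsp70Ba, had no UMI in the order, and Hsromega was most like tna, SoxN and ptc, with Spearman correlations of 0.88, 0.87 and 0.87.

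**Figure D3:**
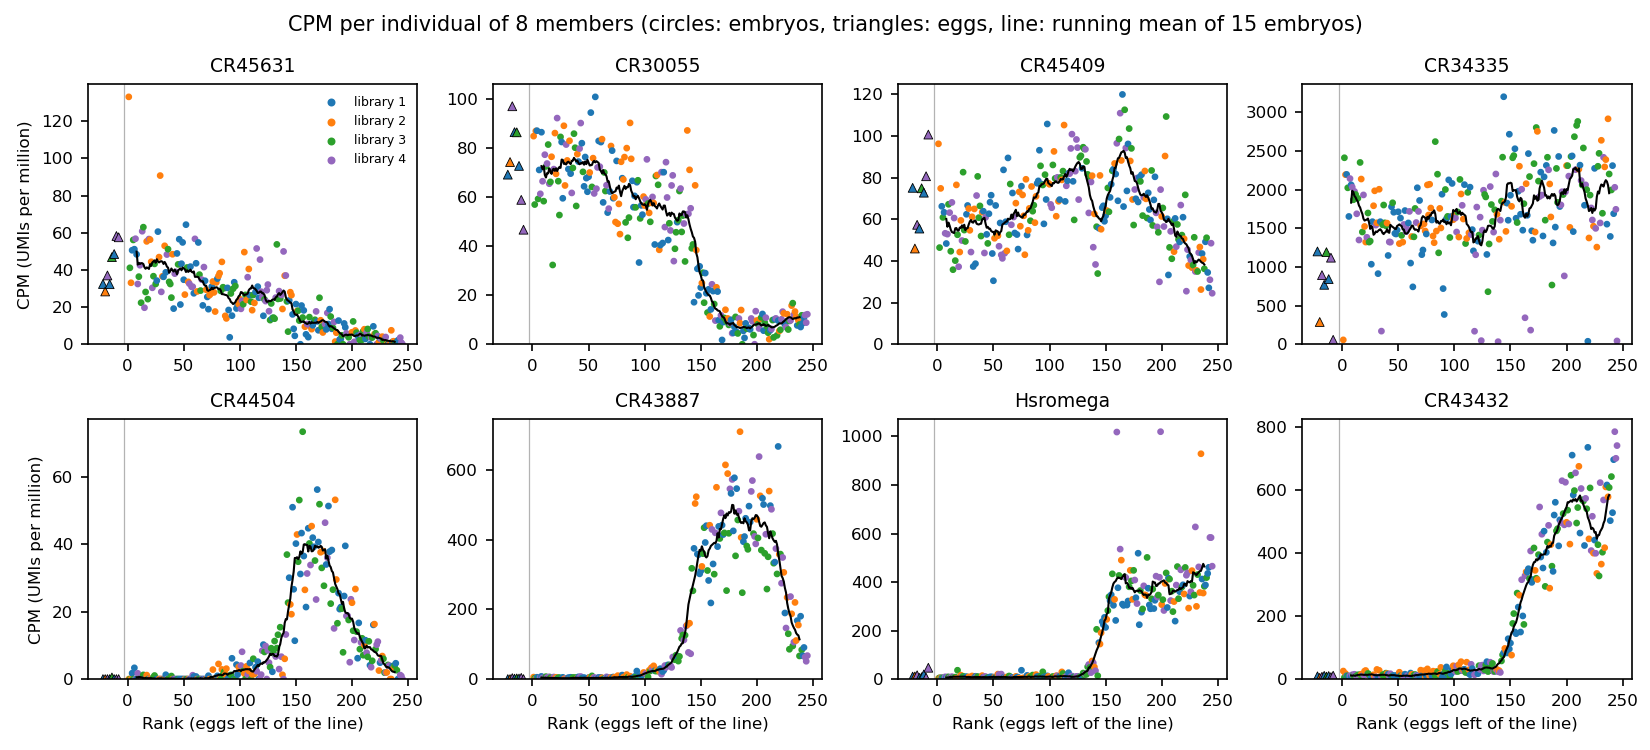
CPM of 8 members in each individual (circles, embryos by rank; triangles, 8 eggs left of the grey line; colours, libraries; black line, running mean over 15 embryos). The upper row shows the falling CR45631 and CR30055, and CR45409 and CR34335, which did neither; in the lower row CR44504 and CR43887 rise and decline, and Hsromega and CR43432 stay high to the end.

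Of the members, 4 lie in the bithorax complex, the Hox cluster that sets identity in the posterior thorax and the abdomen, and all 4 rose. lncRNA:bxd (FBgn0020556, 3R, 16742125 to 16773189), transcribed from the regulatory DNA upstream of Ubx, had 0, 0 and 1.74 CPM in the first 61 embryos, 0, 21.2 and 61.6 CPM at rank 123 to 184 and 1.19, 29.0 and 66.8 CPM in the last 61. lncRNA:iab4 (3R, 16850004 to 16856497), the precursor of mir-iab-4, had no UMI in any egg, a highest value of 1.95 CPM in the first 61 embryos and 1.94, 10.9 and 39.5 CPM in the last 61. lncRNA:iab8 (3R, 16831116 to 16923231), on the opposite strand with mir-iab-8 inside it, had at most 1.71 CPM in the first 61 embryos and 1.55, 14.0 and 42.3 CPM in the last 61. In each of these 3 the lowest late embryos were within the early range, and the late medians were above it. The fourth, lncRNA:CR43617, singled out after its values were seen, had a mean of 0.157 ± 0.367 CPM in the first 61 embryos and 19.1 ± 12.7 CPM in the last 61 (SD, n = 61 each).

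The Hox genes themselves also rose, 3 of the 3 listed coding genes. Ubx went from 1.14 ± 1.20 CPM in the first 61 embryos to 10.8 ± 10.2 at rank 123 to 184 (SD, n = 62) and 76.2 ± 51.4 in the last 61. In their order of reaching 50% of the peak, bxd came at rank 154, CR43617 at 162, iab4 at 177 and iab8 at 209, while abd-A came at 215, Abd-B at 218 and Ubx at 221. With each library left out in turn, bxd stayed between 154 and 156 and Ubx between 216 and 221, while iab8 (202 to 209) and abd-A (205 to 212) overlapped. The running mean of bxd was under 50% of its peak after rank 223, where that of Ubx was still rising.

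Of the 82 members, 14 have an annotated microRNA inside them, a group drawn up after values were seen. Of these 8 rose, 3 fell and 3 did neither, where 31 of all 82 members rose and 21 fell. Among all genes with at least 500 UMIs 20.9% rose and 41.6% fell. The 8 include Hsromega, with mir-4951 inside it, and the counts were not tested. MicroRNAs are cut from such longer transcripts and repress messenger RNAs, and the counts here are of the polyadenylated transcript, not of the mature microRNA.

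lncRNA:CR44504 (FBgn0265697, 2R, 19659645 to 19661847) spans the miR-309 cluster, with mir-309, mir-286, mir-3, mir-4, mir-5 and the mir-6 genes; this cluster is known for the clearance of maternal messenger RNAs. It was transient. It had 0, 0 and 3.34 CPM in the first 61 embryos, 0, 1.24 and 10.2 CPM at rank 62 to 122, 0, 28.8 and 73.3 CPM at rank 123 to 184, and 0, 7.93 and 53.1 CPM in the last 61. It passed 50% of its peak at rank 143 and fell back below it after rank 193, with 142 to 145 and 191 to 197 when a library was left out. The mean at rank 123 to 184, 27.1 ± 16.9 CPM (SD, n = 62), was above that of the last 61, 11.1 ± 10.3 (SD, n = 61). Of the 31 rising members 4 had their mean at rank 123 to 184 above that in the last 61, the others being lncRNA:CR45979, lncRNA:CR45153 and lncRNA:CR45973, named after their values were seen. CR45153 lies in an intron of retn and had 8.91 ± 7.44 and 5.68 ± 4.23 CPM in these 2 groups, and CR45979 lies in an intron of sfl and had 7.87 ± 7.97 and 6.26 ± 5.03.

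Of 4 further microRNA hosts with higher late medians, CR43334 and CR43314 rose and CR43650 and CR31044 counted as neither. lncRNA:CR43334 (FBgn0286827, 3L, 628435 to 643900), the precursor of bantam, a microRNA that promotes growth and blocks cell death, had 0, 2.91 and 9.63 CPM in the first 61 embryos and 0, 15.3 and 152 CPM in the last 61, and reached 50% of its peak at rank 226. lncRNA:CR43314 (2L, 11952200 to 11971094), the host of mir-bft (bereft), which protects sensory bristle cells, had at most 3.44 CPM in the first 61 embryos and 4.45, 14.1 and 75.1 CPM in the last 61, at rank 220. lncRNA:CR43650 (2R, 16829095 to 16839494), the host of mir-8, which acts in growth control, had a rho of 0.27 and counted as neither; its last 61 embryos had 0, 4.44 and 44.1 CPM against 0, 2.65 and 8.50 in the first 61. lncRNA:CR31044, the host of mir-279 and mir-996, had a rho of 0.40, and 0.50 or more with TMM-scaled totals; its median was 10.9 CPM in the first 61 embryos and 21.8 CPM in the last 61. The late embryos overlapped the early ones in CR43334, CR43650 and CR31044 and did not in CR43314.

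lncRNA:CR45361 (2L, 20484399 to 20487548), the host of mir-1, the muscle microRNA, had no UMI in the 8 eggs and 0, 0 and 2.39 CPM in the first 61 embryos. It had 0, 11.7 and 33.4 CPM in the last 61. lncRNA:CR45916 (3L, 19562636 to 19566533), the host of mir-9a, which limits sensory organ formation, also had none in the eggs and went from a mean of 0.156 ± 0.479 to 10.3 ± 10.8 CPM (SD, n = 61 each). Its UMIs were present in 33 of 61 embryos at rank 62 to 122, before the main change of the other hosts.

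The falling hosts were present in the eggs. lncRNA:CR43651 (2R, 9552844 to 9553940), the host of mir-14, a suppressor of cell death, had 5.89, 9.69 and 20.4 CPM in the 8 eggs, 2.01, 9.60 and 22.0 CPM in the first 61 embryos and 0, 0 and 6.25 CPM in the last 61. lncRNA:CR43626, the host of mir-282, had UMIs in 58 of the first 61 embryos and in 4 of the last 61, with means of 6.49 ± 4.85 and 0.128 ± 0.532 CPM. lncRNA:CR43857, the host of mir-275, went from 7.09 ± 5.56 to 0.511 ± 1.12 CPM (SD, n = 61 each), and it counted as neither after thinning. lncRNA:CR43836, the host of mir-31b, had a rho of -0.47 and counted as neither, with UMIs in 53 of the first and 13 of the last 61 embryos. CR43836 counted as falling with the deposited normalized values.

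**Figure D4:**
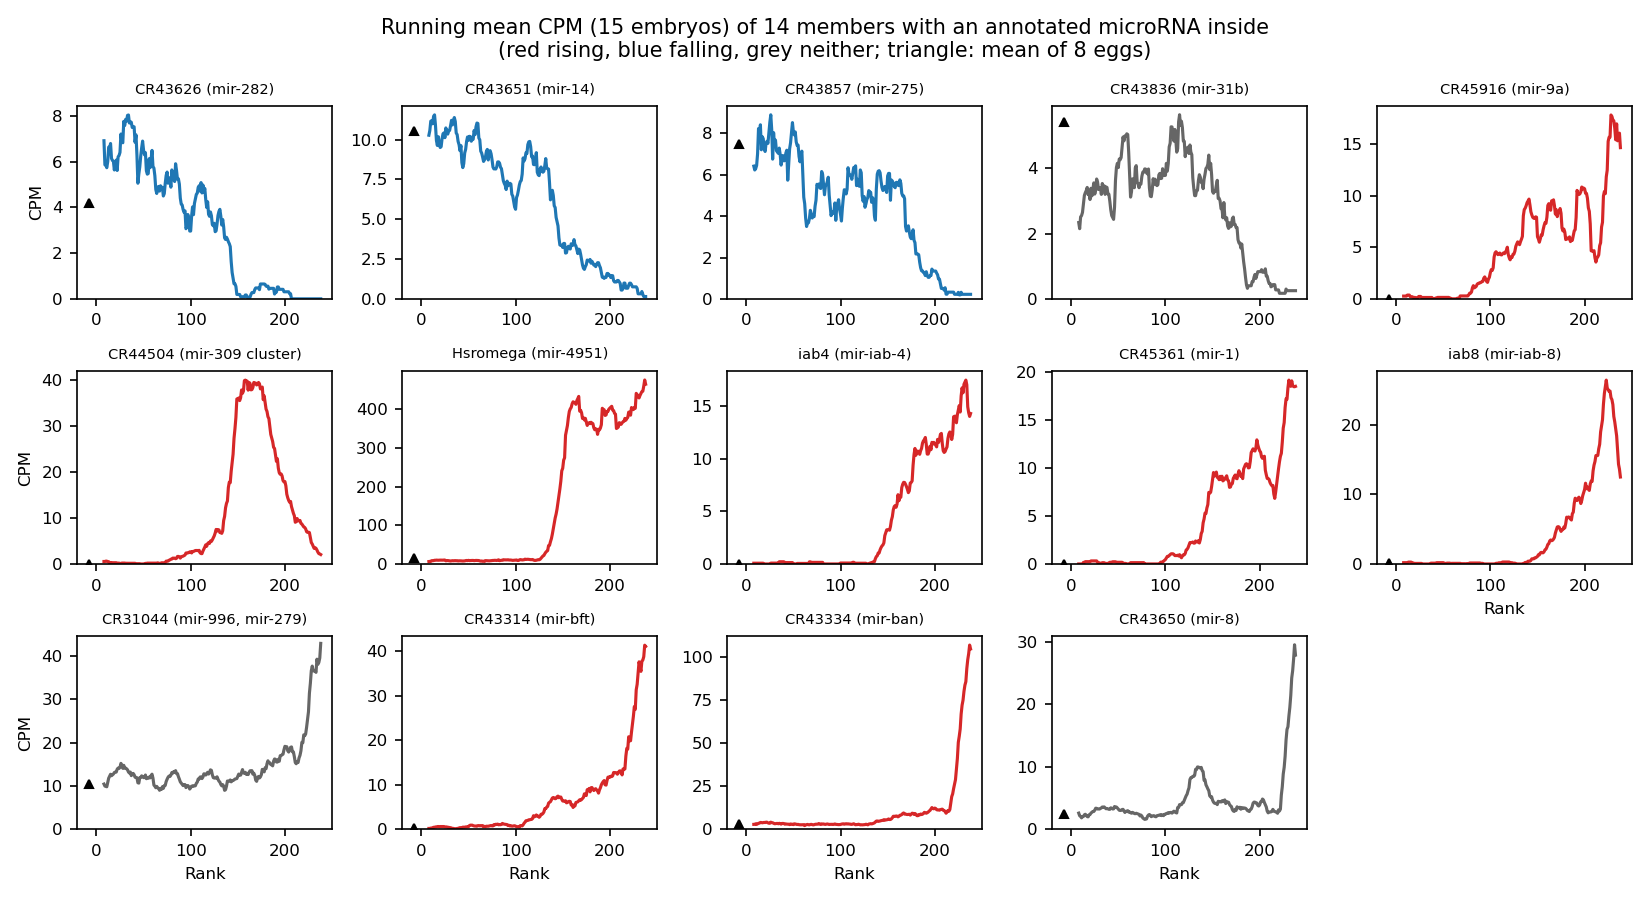
Running mean CPM over 15 embryos against rank for the 14 members with an annotated microRNA inside (red rising, blue falling, grey neither; triangle, mean of 8 eggs). The miR-309 cluster host peaks near rank 158 and declines, while the hosts of mir-ban, mir-bft and mir-8 are highest at the end.

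Other rising members include lncRNA:CR45270 (asRNA:CR45270 in the annotation, FBgn0266808, 2R, 17795886 to 17801924), which overlaps exons of grh, a transcription factor of the epidermis, and of Dhit, a regulator of G-protein signalling, on the opposite strand. It had 0, 0 and 4.04 CPM in the first 61 embryos and 16.2, 38.6 and 68.4 CPM in the last 61, and these did not overlap. Dhit had a rho of -0.41 and a Spearman correlation of -0.40 with it over the 245 embryos. lncRNA:noe, in an intron of blot, had 0, 1.11 and 4.79 CPM among the 61 earliest embryos and 3.21, 23.0 and 54.8 CPM among the 61 latest, which overlapped.

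By position, all 82 members split into 31 that rose, 21 that fell and 30 that did neither, and among all genes 20.9% rose and 41.6% fell. Of the 28 members antisense to a coding exon, 7 rose, 6 fell and 15 did neither. Of the 18 within an intron 11 rose, 5 fell and 2 did neither. The 26 intergenic members split into 11, 9 and 6. The remaining 10 overlap a coding exon on their own strand, and 2 rose, 1 fell and 7 did neither. These are counts over genes and were not tested. The labels do not state whether counting used strand, so in overlapping pairs the reads of the 2 genes may not be told apart. Among antisense pairs, asRNA:CR45139 rose from 0.394 ± 0.783 to 26.9 ± 12.2 CPM while uex, a metal transporter gene on the other strand, went from 171 ± 29.0 to 57.5 ± 24.1 CPM (SD, n = 61 each), with a Spearman correlation of -0.71. asRNA:CR44020, opposite osk, the organizer of germ plasm, had a rho of 0.04 and means of 2.47 ± 1.59 and 2.80 ± 2.33 CPM. In the same groups osk had 1.99 ± 2.17 and 0.172 ± 0.499 CPM. The 222 UMIs of osk over the order are under the minimum set for members, so its values are near the floor. Both pairs were singled out after their values were seen.

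Among the falling members the lowest rho, -0.87, was that of lncRNA:CR45631 (FBgn0267191, 3R, 16428304 to 16429053), a single-exon intergenic RNA. It had 28.4, 41.9 and 58.2 CPM in the 8 eggs, 19.2, 41.3 and 133 CPM in the first 61 embryos and 0, 3.24 and 12.7 CPM in the last 61, below every one of the first 61. The decline was gradual, with a mean of 28.4 ± 9.48 CPM at rank 62 to 122 and 17.3 ± 10.3 at rank 123 to 184.

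lncRNA:CR30055 (FBgn0050055, 2R, 12589239 to 12591395) lies in an intron of Sin3A, a corepressor gene, on the other strand. It had 32.4, 72.5 and 101 CPM in the first 61 embryos and 0, 8.82 and 16.8 CPM in the last 61, with no overlap, and last held 50% of its peak at rank 145. Sin3A had means of 182 ± 27.2 and 175 ± 29.6 CPM in these groups. The genes most like CR30055 were Mdh1, CG11674 and abo, with Spearman correlations of 0.86 each. lncRNA:CR43685, 228 bases from e(y)2b, kept 101 ± 18.5 CPM at rank 62 to 122 (SD, n = 61) and had 24.5 ± 13.7 in the last 61; it was most like CG40045, CG1812 and CG4658, with 0.89, 0.88 and 0.88.

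A pair of members left earlier than the rest. lncRNA:CR32027 (3L, 18841579 to 18842786), in an intron of Indy, a citrate transporter gene, on the other strand, last held 50% of its peak at rank 64 and lncRNA:CR43144 (2L, 21657625 to 21658249) at rank 74. CR32027 had 8.09, 17.4 and 56.6 CPM in the first 61 embryos and 0, 6.27 and 13.5 CPM at rank 62 to 122. CR43144 had 1.33, 14.3 and 38.8 CPM and 0, 5.57 and 14.9 CPM. Both overlapped between these neighbouring groups. The 61 first embryos all carry the digit 1 in their names and 56 of the next 61 the digit 2, which the labels do not explain, so rank and that digit cannot be told apart here. lncRNA:CR43837 kept a mean of 35.0 ± 13.8 CPM to rank 184 and had 4.99 ± 4.70 in the last 61, and it was most like TORIP, Dnz1 and AP-1mu, with Spearman correlations of 0.76, 0.75 and 0.75. lncRNA:CR45036, the lowest member but one in UMIs, had a mean of 3.55 ± 2.16 CPM in the first 61 embryos and 0.543 ± 0.932 in the last 61. CR45036 counted as neither after thinning and with TMM-scaled totals.

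Some members that did neither were highest in the middle of the order. lncRNA:CR46268 (2L, 22538230 to 22548452) had means of 57.4 ± 12.1, 57.5 ± 11.7, 74.8 ± 16.3 and 29.6 ± 15.8 CPM over the 4 successive groups of the order (SD, n = 61, 61, 62 and 61), and it counted as falling with the deposited values. lncRNA:CR43900, which overlaps an exon of the calmodulin gene Cam on the same strand, had 23.1 ± 7.04, 26.0 ± 7.46, 36.5 ± 12.5 and 23.7 ± 14.1 CPM. asRNA:CR45171, opposite Cpr67Fb, a cuticle protein gene, had 2.28 ± 1.44, 3.27 ± 2.20, 3.77 ± 2.72 and 2.61 ± 2.29 CPM. Outside that pattern, lncRNA:dntRL went from 5.60 ± 2.68 CPM in the first group to 1.74 ± 2.39 in the last, and it also counted as falling with the deposited values. lncRNA:CR44816, opposite Marf, a mitochondrial fusion gene, had 2.15 ± 1.82 and 5.59 ± 3.57 CPM in the same groups.

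The other lists are given for the same 245 embryos. Of 30 early zygotic genes with at least 500 UMIs 23 rose and 1 fell, with a median rho of 0.82, and of 22 maternal genes 1 rose and 19 fell, with a median of -0.74. Of 7 dosage compensation genes, roX1 included, 3 rose and 2 fell, with a median of -0.04. Of 7 snoRNA host genes 5 had at least 500 UMIs, of which 4 rose and 1 fell, with a median of 0.59.

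The pair that holds most of the member UMIs is short. lncRNA:CR34335 (FBgn0267910, X, 3545750 to 3546110) is 361 bases long within an intron of DIP-alpha, and lncRNA:CR40469 (FBgn0058469, X, 122493 to 122706) is 214 bases long. Their counts had a Pearson correlation of 0.987 over the individuals of the order, and the ratio of CR34335 to CR40469 stayed between 0.5 and 1.26, with a median of 1.08. The 2 genes may share reads, so their separate values are uncertain. CR34335 had 56.6, 1571 and 2413 CPM in the first 61 embryos and 38.5, 1999 and 2916 CPM in the last 61. Of the 245 embryos 10 had under 600 CPM, between 33.3 and 385, while the other embryos had at least 680 CPM and a median of 1740. This threshold was set after the values were seen. Of these 10 embryos 7 were in library 4, and they had 163287 to 1073102 UMIs in all, the median being 332262. The part of depth and library in these low values was not tested. Both genes rose when totals were TMM-scaled.

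Unfertilized eggs hold maternal RNA and no embryonic genome, and the comparison with the first 61 embryos asks what differs without fertilization. CR34335 had 57.6, 868 and 1201 CPM (lowest, median and highest) in the 8 eggs, and the first 61 embryos ranged from 56.6 to 2413 CPM, so the groups overlapped. Its mean was 795 ± 421 CPM in the eggs (SD, n = 8) and 1599 ± 423 in the embryos (SD, n = 61), which is -1.01 ± 0.23 (SE) on the log2 scale, with edgeR adjusted p = 0.00707. CR40469 had 736 ± 379 and 1494 ± 374 CPM, or -1.02 ± 0.22 on the log2 scale, with edgeR adjusted p = 0.00327. These were the 2 members called of 35 tested, both lower in eggs, where 1.90% of all 6048 genes tested were lower and 0.860% higher (2.76% in either direction). Members were chosen by UMIs summed over the order, which holds both of these groups and more embryos than eggs. That choice favours members high in embryos, so these p-values do not give independent evidence of lower levels in eggs. With these 8 eggs no member was called higher by edgeR or by DESeq2, and 5 members had an unadjusted edgeR p under 0.05.

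The call on the pair depended on the eggs used. The eggs with 57.6 and 288 CPM of CR34335 are 1 each of libraries 4 and 2. CR34335 lost its call without library 1 (log2 fold change -1.23, edgeR adjusted p 0.0609), without library 4 (-0.93, 0.0641) and with only the 5 eggs whose names have the digit 1 (-0.92, 0.0740), a choice made after the data were seen, while CR40469 kept its call in these, with edgeR adjusted p between 0.0328 and 0.0478. With the eggs outside the order of at least 100000 UMIs, CR34335 had -0.19 and CR40469 -0.17, and neither was called. These 19 eggs had a mean of 1631 ± 568 CPM of CR34335 (SD, n = 19). With them added, edgeR called 4 of 27 members tested higher in eggs and 6 lower. Among all genes tested in that setting, 39.4% were higher and 41.8% lower.

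Embryos that the order leaves out give an independent set of individuals. Between 20 of them with the digit 3 in their names and 39 with the digit 1, all with at least 100000 UMIs, no member was called by edgeR among 30 tested, where 2.47% of all genes tested were higher and 2.73% lower with the digit 3 (5.19% in either direction). At an unadjusted p under 0.05 there were 4 members, and DESeq2 called 1. The falling members summed to a median of 118 CPM in the digit 1 embryos and 91.5 in the digit 3 embryos, and the rising members to 2557 and 2006 CPM, so this comparison did not set early against late embryos.

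Of the 105 embryos outside the order, the 74 with at least 100000 UMIs were therefore compared with the last 61 of the order. These 74 include 15 with the digit 2 in their names. The comparison was added after the data were seen. Their patterning genes summed to a median of 460 CPM against 1921 CPM in the last 61. Germ plasm and pole cell markers summed to a median of 523 CPM against 871 CPM. The rising members summed to a median of 2135 CPM against 1861 CPM, and the falling members to 116 CPM against 71.4 CPM. Of 34 members tested 14 were higher and 11 lower by edgeR, where 45.7% of all genes were higher and 35.7% lower (81.4% in either direction). The shares in the members stand close to this background. The 18 rising members tested split into 4 higher, 8 lower and 6 not called.

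The members that were lower were led by RNAs of the bithorax complex and by CR43887. Members were chosen by UMIs in the order, which holds the last 61 embryos and not the embryos outside it. That choice favours members high in the last 61, so the p-values below do not give independent evidence of lower levels. CR43617 had 0, 0 and 32.5 CPM outside the order and 0, 21.1 and 51.8 CPM in the last 61, a log2 fold change of -4.01 ± 0.31 with an edgeR adjusted p of 3.57e-24. bxd had 0, 1.27 and 49.4 CPM against 1.19, 29.0 and 66.8 CPM, a log2 fold change of -3.27 ± 0.28. CR43887 had 0, 6.23 and 1017 CPM against 51.2, 358 and 710 CPM, a log2 fold change of -3.90 ± 0.35. The groups overlapped in all 3 genes, though the medians of the embryos outside the order were below the 61 late embryos' lowest value for CR43887. iab8 was also lower, at -0.65 ± 0.19 on the log2 scale with edgeR adjusted p = 0.00103.

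The 6 largest fold changes among the called members that were higher were those of CR43650, CR30009, CR45102, asRNA:CR43933, CR43334 and CR43314, of which 3 are microRNA hosts. CR43650, the mir-8 host, had 0, 193 and 454 CPM outside the order against 0, 4.44 and 44.1 CPM, a log2 fold change of 4.50 ± 0.33 with an edgeR adjusted p of 1.13e-25. lncRNA:CR30009 (2R, 10261315 to 10263827) ranged from 0 to 1306 CPM against 0 to 141 CPM, a log2 fold change of 3.75 ± 0.36. lncRNA:CR45102 ranged from 0 to 74.1 CPM against 0 to 20.3 CPM, a log2 fold change of 2.75 ± 0.23. asRNA:CR43933 had 0, 17.0 and 172 CPM against 0, 4.55 and 13.2 CPM, a log2 fold change of 2.24 ± 0.24. CR43334, the bantam host, had 0, 150 and 398 CPM against 0, 15.3 and 152 CPM, a log2 fold change of 2.15 ± 0.27, and CR43314, the mir-bft host, 0, 85.7 and 170 CPM against 4.45, 14.1 and 75.1 CPM, a log2 fold change of 2.01 ± 0.23. All 6 overlapped the last 61 embryos, with medians above their highest values for CR43650, CR30009, CR43933 and CR43314. Hsromega was not called, at 0.28 ± 0.16 on the log2 scale with edgeR adjusted p = 0.0869.

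The hybrid cross allows the parental origin of 7 members to be read from the deposited allele values, which the choice of members did not use. Of 6 members tested in the last 61 embryos, 3 had a higher paternal value and none a higher maternal one, by a sign-flip permutation test with 100000 resamples. Over all 2062 genes tested, 9.02% were paternal higher and 70.1% maternal higher, and the median paternal share was 33.1%. This background holds genes of every course, and 41.6% of all genes with at least 500 UMIs fell along the order. Of the 6 members, CR43432, CR45270, bxd and iab8 rose. The background was not split by course, so members and all genes are not like sets here. With no filter on low values 1 member, CR43650, was maternal higher, with 16 maternal and 1 paternal units in these embryos.

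CR45270 had paternal values of 3, 17 and 51 (lowest, median and highest) and maternal values of 0, 6 and 17 in the last 61 embryos. The paternal value was higher in 60 of 61 embryos and the maternal in none. Its paternal share was 73.7%, between 71.9% and 75.0% in the 4 libraries, with an adjusted p of 1.84e-05 in the permutation test, the smallest p these resamples give before adjustment being 1e-05. In the first 61 embryos the share was 18.5%, with 5 paternal and 22 maternal units. iab8 had paternal values of 0, 6 and 19 and maternal values of 0, 2 and 12, with the paternal higher in 38 and the maternal in 15 of 61 embryos, a share of 66.1% and an adjusted p of 1.84e-05 in the permutation test. Its share lay between 58.0% and 70.4% in the 4 libraries. CR30009 had a share of 83.3%, from 75 paternal and 15 maternal units, and an adjusted p of 3.55e-05 in the permutation test. Its paternal units were already present without maternal ones in the eggs (3 of 3) and in the first 61 embryos (18 of 18), and eggs have no father. The part of such units in the late share was not tested.

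CR43432 had a late paternal share of 46.0% and bxd one of 45.4%, and neither was called, with adjusted p of 0.123 and 0.140 in the permutation test. In CR43432 too the eggs and first embryos held paternal units and no maternal ones, 1 in the eggs and 10 in the embryos, and bxd held 2 in the eggs and 5 in the first 61 embryos, with no maternal ones. Without library 1 bxd was maternal higher, with a share of 43.8% and an adjusted p of 0.0481 in the permutation test.

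**Figure D5:**
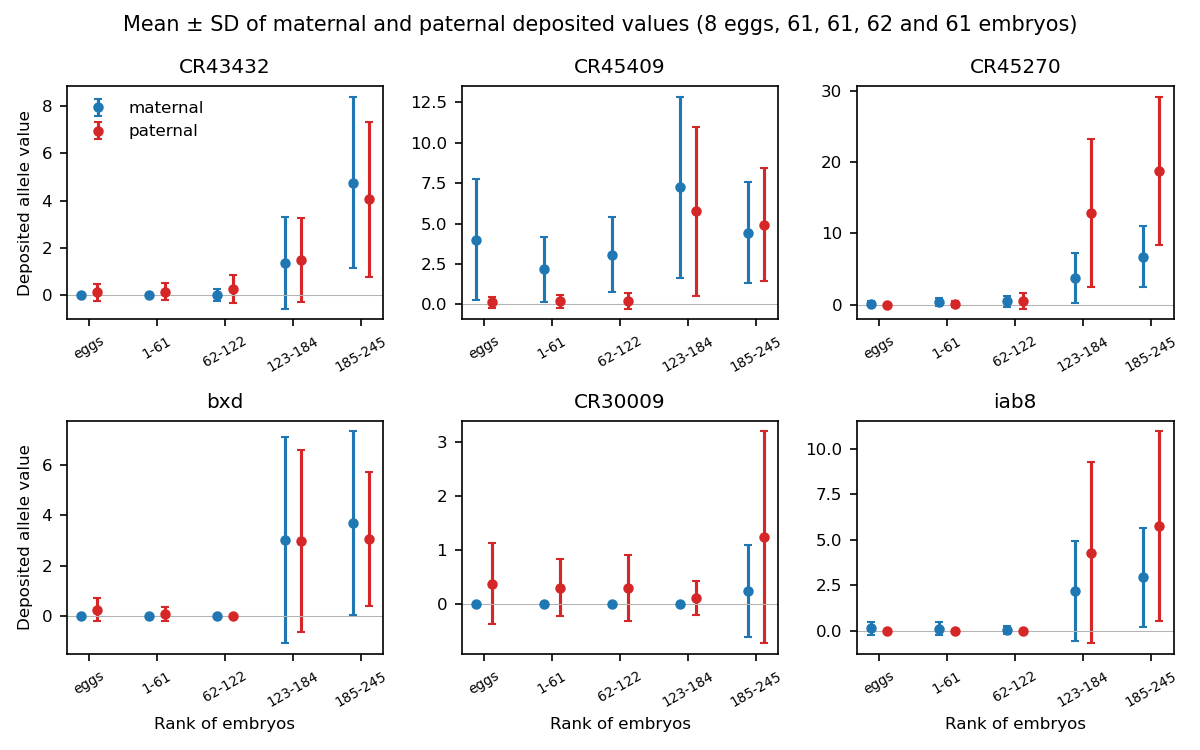
Mean and SD of the maternal (blue) and paternal (red) deposited values of the 6 tested members in the 8 eggs and in successive groups of 61, 61, 62 and 61 embryos. In CR45270 and iab8 the late paternal mean stands above the maternal one, and in CR45409 the paternal mean is at most 0.23 up to rank 122 and 5.76 at rank 123 to 184.

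lncRNA:CR45409 (FBgn0266958, 3L, 8309351 to 8310512), which overlaps an exon of Cpsf6, a cleavage factor gene, on the same strand, had its highest levels between the ends of the order. Its CPM was 30.5, 58.3 and 96.3 in the first 61 embryos and 24.5, 50.7 and 109 in the last 61, and the rho was -0.06. The means of the 4 groups in order were 57.1 ± 13.2, 72.1 ± 14.1, 78.0 ± 17.1 and 52.4 ± 17.1 CPM (SD, n = 61, 61, 62 and 61), and the groups overlapped. The paternal share of its summed allele values was 3.03% in the 8 eggs, 7.69% in the first 61 embryos, 6.97% at rank 62 to 122, 44.2% at rank 123 to 184 and 52.6% in the last 61. Averaged over embryos with a value, the share was 17.6 ± 37.8% in the first group (SD, n = 54) and 53.6 ± 29.2% in the last (SD, n = 61), a difference of 36.0 percentage points. This difference was chosen after the values were seen and is a description, with no test. It was 31.1, 43.1, 48.5 and 21.3 percentage points in libraries 1 to 4. A late difference between paternal and maternal values did not pass the sign-flip permutation test (adjusted p = 0.429), with the paternal higher in 33 and the maternal in 23 of 61 embryos.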

How the data were processed

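UMI counts per gene and well barcode were used as deposited by the authors for 4 libraries, with 92 spike-ins left out. Dm6 and BDGP6 are named as builds, and Trim Galore 0.6.10, SAMtools 1.17, Picard, GATK 4.4.0.0 and R 4.2.1 as tools, per the submitters' processing notes. The authors' 2 tables of the order, the second split by parental allele, hold whole numbers normalized by a method not given in the sources used here; they are used here as a score, as deposited, with entries of 0.1 read as 0. Individuals were taken from the authors' barcode table. The digit after the first letter of their names is not explained in the labels.

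CPM is UMIs per 1000000 gene UMIs of the individual. The course is Spearman's rho of CPM with rank. No p-value was computed for it, since the order was made from the same values. Counts were tested with edgeR 4.0.16 (TMM, filterByExpr, library as a term, quasi-likelihood, Benjamini-Hochberg adjusted p under 0.05 over all genes), with DESeq2 1.42.0 as an alternative, under R 4.3.3. Paternal minus maternal values were tested by sign flips (two-sided permutation test, 100000 resamples), over genes with a value in at least 10 embryos and parental values that together averaged 1 or more. Individuals were the replicates. The edgeR and sign-flip tests were tested on simulated data. Other settings were another scaling, tool, filter, depth or threshold, and leaving out each library. Coordinates are those of the BDGP6.54 annotation. The largest count of a member in an individual was 3061, and that of any gene 4092.

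The members, the lists and the tests were chosen with earlier results of these data known. Named members are those with names other than CR numbers, the 6 highest and 6 lowest rho, the 5 with most UMIs, 4 with a middle peak, called members, those with allele values and the 2 just inside the threshold; others are said to be chosen after values were seen.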

Additional observations from a re-analysis of the deposited data

Results flagged for a closer look

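In 57 groups of values checked for a single value far from the others, 4 were found, and chance gives about 1 in 20. Hsromega had 46.8 CPM in 1 egg of library 4, from 13 UMIs in an egg with 278007 UMIs in all, where the other 7 eggs had between 5.17 and 19.4 CPM. The same egg had the lowest CR34335 value of the 8. CR43651 had 20.4 CPM in another egg of library 4, from 22 UMIs, where the others had between 5.89 and 11.9 CPM. The rho of CR43900 with rank was -0.0302 in library 4 and between 0.16 and 0.19 in the other 3. The rho of CR43334 was 0.50 in library 2 and between 0.71 and 0.74 in the other 3.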

How the results depend on the processing

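Against 31 rising and 21 falling of 82 members, 61 of 190 members rose and 28 fell at a minimum of 100 UMIs. Among all genes of that minimum 21.5% rose and 37.4% fell. At a minimum of 2000 UMIs 9 of 25 rose and 7 fell, and among all genes 20.8% rose and 43.9% fell. After thinning to 163287 UMIs per embryo 29 of the 82 rose and 10 fell. The 11 falling members that counted as neither after thinning had between 520 and 2142 UMIs. Without a library 31 to 32 rose and 20 to 21 fell. For eggs, 1 to 2 members and 30 to 289 genes were called without a library, against 2 and 167. The added eggs of at least 100000 UMIs gave 10 of 27 members and 4792 genes (81.2% of those tested). All added eggs gave 12 of 27 members and 4784 genes (81.4%). The 5 eggs with the digit 1 gave 1 member and 39 genes, and DESeq2 263 genes. For the embryos with the digits 3 and 1, against 0 members and 337 genes, DESeq2 called 1 and 690, no filter 1 and 181, and no library term 2 members. With no minimum of UMIs 12 of 28 members and 1656 genes (28.3% of those tested) were called. A minimum of 300000 UMIs gave 12 genes, and leaving out a library 0 to 1 members and 115 to 1399 genes. Outside the order, the main setting called 25 of 34 members tested and 5106 genes (81.4% of those tested). DESeq2 called 51 of 82 members and 7421 genes (70.5%), and edgeR with no filter 53 of 82 members and 9171 genes (68.2%). For alleles, 1 member was maternal higher with no filter, and 0 to 1 without a library. The cause was not tested where these counts moved. Among the members named by the stated rules or as microRNA hosts, no called value changed direction under the settings tried. Other called members, such as CR43617, CR45102 and asRNA:CR43933, were not checked for this. Individuals of each kind share the 4 libraries, and library was a term of the edgeR fits. No paired analysis was possible because the labels put the 4 libraries in a single group and number no pairs of individuals.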
